A study of Mus musculus with 16 samples.

Results

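Replication-dependent histone genes encode the core histones H2A, H2B, H3 and H4 and the linker histone H1 that package newly made DNA in S phase. Members were all gene symbols starting with Hist1h, Hist2h, Hist3h or Hist4, which gave 53 of 15386 genes in the RNA-seq table and 61 of 13490 genes in the m6A table, 63 different genes in all. The cells were CFU-E, the late erythroid progenitors of bone marrow, sorted as live Lin-, Kit+ and CD71+ cells without CD34, CD41, Sca1 or CD16/32. RNA-seq compared 3 libraries of control CFU-E with 3 that the labels call CFU-E Kit-low Mettl3 KO (CFU-E Kit-lo below), and the m6A experiment compared 2 immunoprecipitated (IP) with 2 input libraries of control CFU-E. Mettl3 is the catalytic subunit of the enzyme complex that writes N6-methyladenosine (m6A) on mRNA.

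The Mettl3-deficient mice were adult Mettl3 fl/fl EpoR Cre/- animals of both sexes on a C57BL/6 background, in which a tdTomato-Cre allele at the erythropoietin receptor gene drives deletion. This Cre also recombines in macrophages of erythroblastic islands. The genotype of the controls is not spelled out in the sources used here. The CFU-E Kit-lo gate took the Mettl3-deficient CFU-E with little Kit on their surface, so genotype and Kit gate cannot be told apart. Mettl3 mRNA was 123 ± 7.43 CPM (counts scaled to library size, SD, n = 3) in control and 117 ± 9.51 CPM in the libraries with the KO label (log2 fold change -0.07 ± 0.10 SE, adjusted p = 0.634 by edgeR's quasi-likelihood test), and gene counts do not show single exons. Every direction given here therefore takes the genotype from the labels. The paper reports Mettl3 mRNA (by qRT-PCR) and protein as absent from erythroid cells of these mice, and their global m6A level as lower. In the same libraries Kit mRNA was 598 ± 47.1 CPM in control and 55.2 ± 12.4 CPM in CFU-E Kit-lo.

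Most mRNAs end in a poly(A) tail, whereas the mRNA of a replication-dependent histone gene normally ends just after a short stem-loop. The stem-loop binding protein Slbp and the U7 small nuclear ribonucleoprotein direct that cleavage, and the histone mRNA is destroyed when replication stops. Some of these genes also carry a poly(A) signal further downstream and make longer, polyadenylated mRNA, a form known from differentiating and non-dividing cells. Both preparations primed cDNA with oligo-dT, so a transcript without a poly(A) tail is not captured in proportion to its amount. All values below describe oligo-dT primed cDNA and not the whole histone mRNA pool.

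The members sit in 4 places of the mouse genome (GRCm38): 50 on chromosome 13, 10 on chromosome 3, 2 on chromosome 11 and 1 on chromosome 6. A stem-loop pattern of 16 letters (GG, 3 bases, TT, 1 base, T, 1 base, A, 3 bases, CC), searched on the sense strand in the 150 bases after the stop codon, was found in 61 of the 63 members (96.8%) and in 57 of 21685 other protein-coding genes (0.263%). Hist2h2be and Hist1h2an were the exceptions. The stem-loops of 5 members are shown because the results turn on these genes or because they differ in sequence. Capitals mark the 16 letters of the stem and loop, and 5 genomic bases flank them on either side, 5′ to 3′ on the sense strand.
Hist1h1c, a linker histone gene (chr13:23739507-23739532, plus strand): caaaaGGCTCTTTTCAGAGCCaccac
Hist3h2a, an H2A gene (chr11:58955167-58955192, plus strand): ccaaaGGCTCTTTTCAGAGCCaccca
Hist1h2ap, an H2A gene (chr13:21833024-21833049, minus strand): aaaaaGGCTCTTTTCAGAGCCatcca
Hist1h3g, an H3 gene (chr13:23535884-23535909, plus strand): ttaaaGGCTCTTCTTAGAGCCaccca
Hist1h4d, an H4 gene (chr13:23581945-23581970, plus strand): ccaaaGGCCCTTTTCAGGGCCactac

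The stem divided the H4 genes from the rest. All 49 H1, H2A, H2B and H3 genes with a match opened their stem with GGCTC, as the first 4 shown do, and 0 of the 12 H4 genes did. The 16 letters of Hist1h1c, Hist3h2a and Hist1h2ap were shared by 40 genes, those of Hist1h4d by 7, all of them H4 genes, and those of Hist1h3g by no other member. The 16 letters began 21 to 58 bases after the stop codon, with a median of 30 bases.

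Annotated length varied far more than the stem-loop. In GENCODE, 45 members had a longest transcript under 1000 bases and 18 had one of at least 1000 bases. The 1560-base transcript of Hist1h1c ran 840 bases past its stem-loop, and the 2146-base transcript of Hist3h2a ran 1643 bases past. Both, and the 2620-base transcript of Hist2h2be, held a poly(A) hexamer (AATAAA or ATTAAA) in their last 40 bases. Such a hexamer was found in 8 of the 18 long members and in 7 of the 45 shorter ones. Hist1h2ap ended 3 bases past its stem-loop and held no such hexamer.

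The genes are also close copies of one another, which limits how reads can be assigned. Only 23 of the 63 members had at least 50% of their 31-base words in no other gene. Hist1h2ap shared 93.4% of its words with Hist1h2ao, so values of this pair are uncertain. All words of Hist2h3b also lie in Gm20628, an overlapping annotated gene, and the counting was not stated to use strand. The values of Hist1h1c (88.6% unique words) and Hist2h2be (97.2%) are less exposed to sharing. Hist3h2a shared 32.1% of its words with the overlapping gene Trim17, which was at 2.22 CPM in control and 1.91 CPM in CFU-E Kit-lo.

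The depth was 17429262 to 21329242 counts per RNA-seq library and 19421059 to 37142742 per m6A library. Histone genes took little of it. All 53 members together held 0.0194 to 0.0239% of the counts of a control RNA-seq library and 0.0151 to 0.0184% of a CFU-E Kit-lo library. Many members therefore rest on few counts, and 15 of the 53 were too low to test. The replicates are separate samples by label, but no source says that they came from separate mice, so p-values measure the spread between these samples only.

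Comparing CFU-E Kit-lo with control asks which histone transcripts differed in the Mettl3-deficient progenitors. Of the 38 members tested, Hist1h1c, Hist3h2a and Hist2h2be were lower, 0 were higher and 35 passed no threshold (fold of at least 1.5 and Benjamini-Hochberg adjusted p under 0.05 by edgeR's quasi-likelihood test). Across all 11979 genes tested, 9.83% were called lower and 12.1% higher, so the 7.89% of members called lower lay near the background. DESeq2 called the same 3 genes lower and 0 higher, and at an unadjusted p under 0.05 the counts by edgeR were 5 lower and 1 higher. Of all genes tested, 21.5% were lower and 22% higher at that unadjusted p. These shares are also the background of the unadjusted counts by class, by length and by shared sequence below. The median log2 fold change of the 38 members was -0.31, beside 0.01 over all genes tested, and 26 of the 38 lay below 0.

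**Figure D1:**
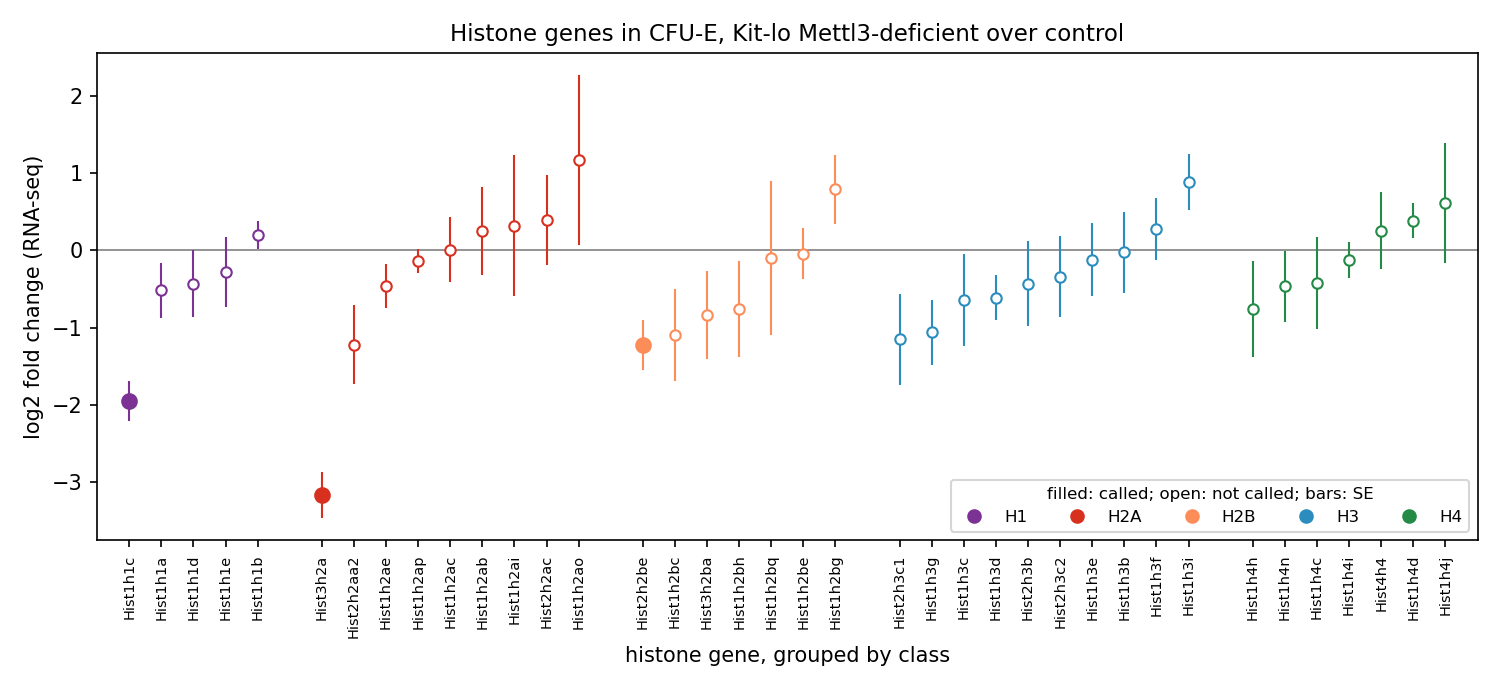
Log2 fold change of the 38 tested histone genes in CFU-E Kit-lo over control, with the SE, ordered within each histone class. Filled points passed the threshold (Hist1h1c, Hist3h2a and Hist2h2be, all below 0), and open points did not.

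Hist3h2a, an H2A gene in the small cluster on chromosome 11, had the largest fold difference of the histone genes tested. It was at 14.6, 14.5 and 13.96 CPM in control and 1.35, 1.12 and 2.34 CPM in CFU-E Kit-lo, from 244 to 305 and from 23 to 45 counts. The groups lay far apart. Its level fell 8.94-fold, a log2 fold change of -3.16 ± 0.30 (SE, edgeR adjusted p = 4.1e-05).

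Hist1h1c encodes H1.2, one of the somatic linker histones that bind DNA between nucleosomes. It had 623, 700 and 669 counts in control and 139, 148 and 262 in CFU-E Kit-lo, or 36.0 ± 5.45 and 9.35 ± 3.73 CPM (SD, n = 3). The highest CFU-E Kit-lo library, replicate 3, stayed below the lowest control library. The level fell 3.85-fold (log2 fold change -1.95 ± 0.26 SE, edgeR adjusted p = 0.00031).

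Hist2h2be, an H2B gene on chromosome 3 without the stem-loop letters in the window searched, was at 5.45, 9.03 and 5.89 CPM in control and 2.18, 2.96 and 3.54 CPM in CFU-E Kit-lo. Its groups did not overlap either, and the log2 fold change was -1.23 ± 0.32 (SE, edgeR adjusted p = 0.014). Without control replicate 2, the highest of these libraries, the log2 fold change was -0.98 and the adjusted p 0.0716, so the call rests on that library. In all genes tested, 24% had every CFU-E Kit-lo library below every control library, and 6 of the 38 histone genes did.

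**Figure D2:**
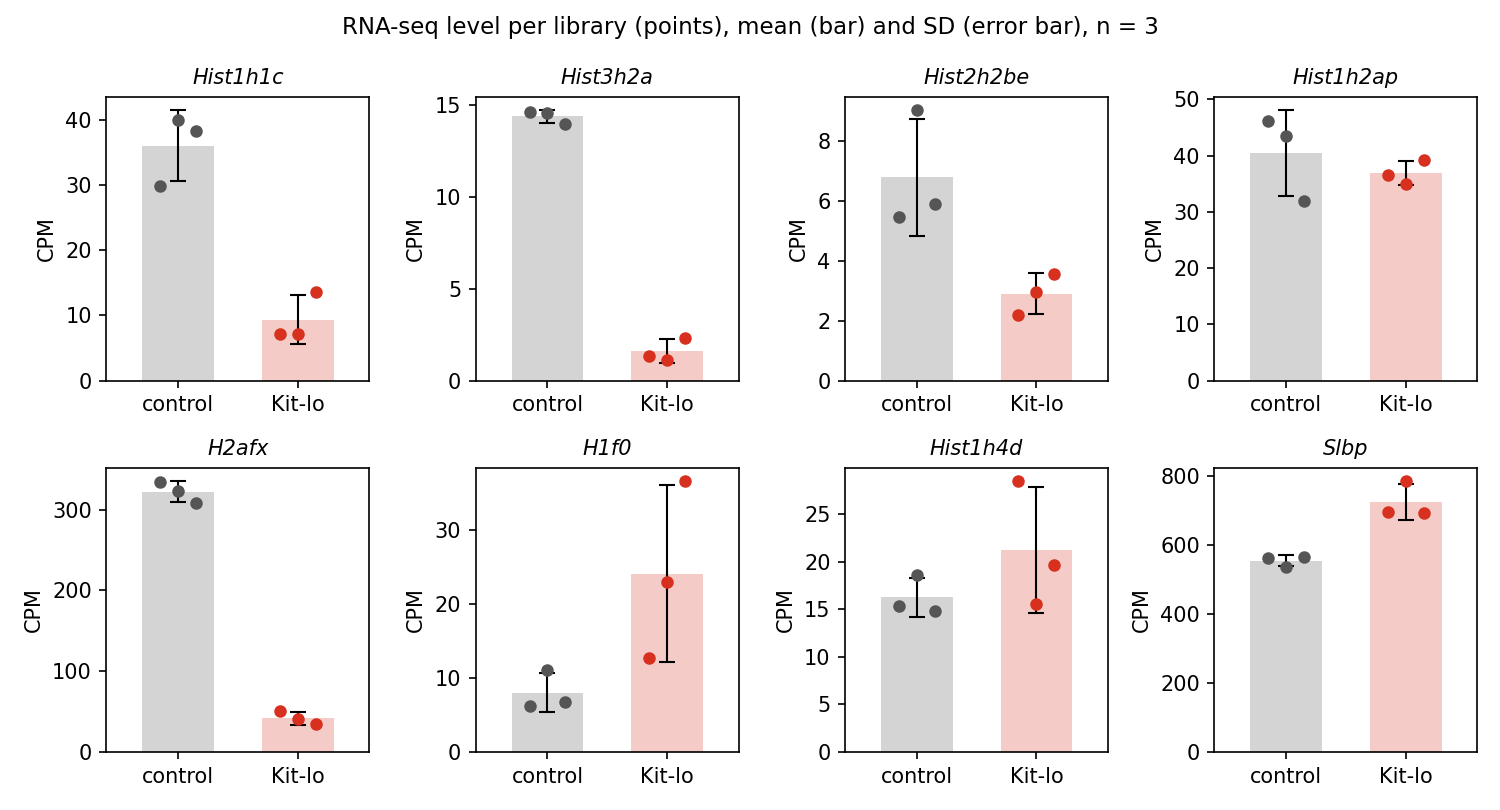
CPM in each RNA-seq library (points) of control and CFU-E Kit-lo cells, with the mean (bar) and SD (error bar) of 3 libraries. Hist1h1c, Hist3h2a, Hist2h2be and H2afx separate with CFU-E Kit-lo below control, H1f0 and Slbp separate with CFU-E Kit-lo above, and Hist1h2ap and Hist1h4d overlap.

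The other linker histone genes passed no test. Hist1h1b, which encodes H1.5, was at 11.8 ± 0.985 CPM in control and 13.5 ± 1.82 CPM in CFU-E Kit-lo (log2 fold change 0.20 ± 0.18 SE). For Hist1h1a, Hist1h1d and Hist1h1e the log2 fold changes were -0.52 ± 0.36, -0.43 ± 0.44 and -0.28 ± 0.45 (SE), and their control levels were 5.12, 2.62 and 3.01 CPM. With SEs of this size, small differences of these genes were not detectable at this depth. The summed H1 level was 58.6 ± 7.17 CPM in control and 30.9 ± 5.76 CPM in CFU-E Kit-lo (SD, n = 3), and Hist1h1c held 36.0 CPM of it in control.

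H2A had 15 genes, of which 9 were tested. Hist1h2ap held the highest H2A level and, per length of its longest transcript, the highest control level of the histone genes named here, at 84.0 CPM per kb, beside 23.1 CPM per kb for Hist1h1c and 14.3 CPM per kb for Hist1h4d. It was at 46.2, 43.4 and 31.9 CPM in control and 36.5, 35.03 and 39.2 CPM in CFU-E Kit-lo, and the groups overlapped (log2 fold change -0.13 ± 0.15 SE, edgeR adjusted p = 0.55). Hist3h2a was the H2A gene called. Of the other H2A genes tested, the log2 fold changes ran from -1.22 for Hist2h2aa2 (adjusted p = 0.095) to 1.17 for Hist1h2ao, whose libraries ranged from 0 to 83 counts in CFU-E Kit-lo.

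H2B had 10 genes, 7 of them tested, with a median log2 fold change of -0.76. Hist2h2be, called lower, had the highest H2B level in CPM. H3 had 12 genes, 10 tested and 0 called by edgeR in either direction. At an unadjusted p under 0.05, 1 was lower and 1 higher, and DESeq2 called 0. The highest H3 level was that of Hist1h3d, at 9.71, 7.26 and 9.50 CPM in control and 4.36, 4.75 and 8.18 CPM in CFU-E Kit-lo (log2 fold change -0.61 ± 0.29 SE, edgeR adjusted p = 0.13). CFU-E Kit-lo replicate 3 was the library that reached the control range. Hist1h3g and Hist1h3i, named after their values were seen, had log2 fold changes of -1.06 ± 0.42 and 0.89 ± 0.36 (SE) and edgeR adjusted p of 0.078 and 0.087.

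H4 had 11 genes, 7 tested, and 0 called by edgeR, by DESeq2 or at an unadjusted p under 0.05. The most abundant by CPM, Hist1h4d, was at 15.4, 18.6 and 14.8 CPM in control and 28.4, 15.5 and 19.6 CPM in CFU-E Kit-lo, which overlap (log2 fold change 0.38 ± 0.22 SE, edgeR adjusted p = 0.22). The median log2 fold change of the H4 genes was -0.12.

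Summed by class, the libraries held a different mix of histone transcripts, and the 3 genes called weigh on these sums. The H4 genes made up 15.6 ± 0.388% of all histone gene counts in control and 23.0 ± 1.24% in CFU-E Kit-lo (SD, n = 3). The H1 genes made up 27.3 ± 2.39% and 18.7 ± 1.21%. Hist1h1c alone made up 16.8 ± 2.20% and 5.59 ± 1.55% of all histone gene counts. The genes other than the 3 called made up 73.4 ± 2.21% and 91.7 ± 1.99%, so the shares of other genes rise as the called genes fall. The summed H4 level itself overlapped between the groups, at 33.6 ± 3.89 and 37.7 ± 4.14 CPM, as did that of H3, at 33.5 ± 2.83 and 29.8 ± 1.74 CPM. All members together summed to 215 ± 20.3 CPM in control and 164 ± 19.8 CPM in CFU-E Kit-lo. Without the 3 genes called, the sums overlapped, at 157 ± 15.7 and 150 ± 15.4 CPM.

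**Figure D3:**
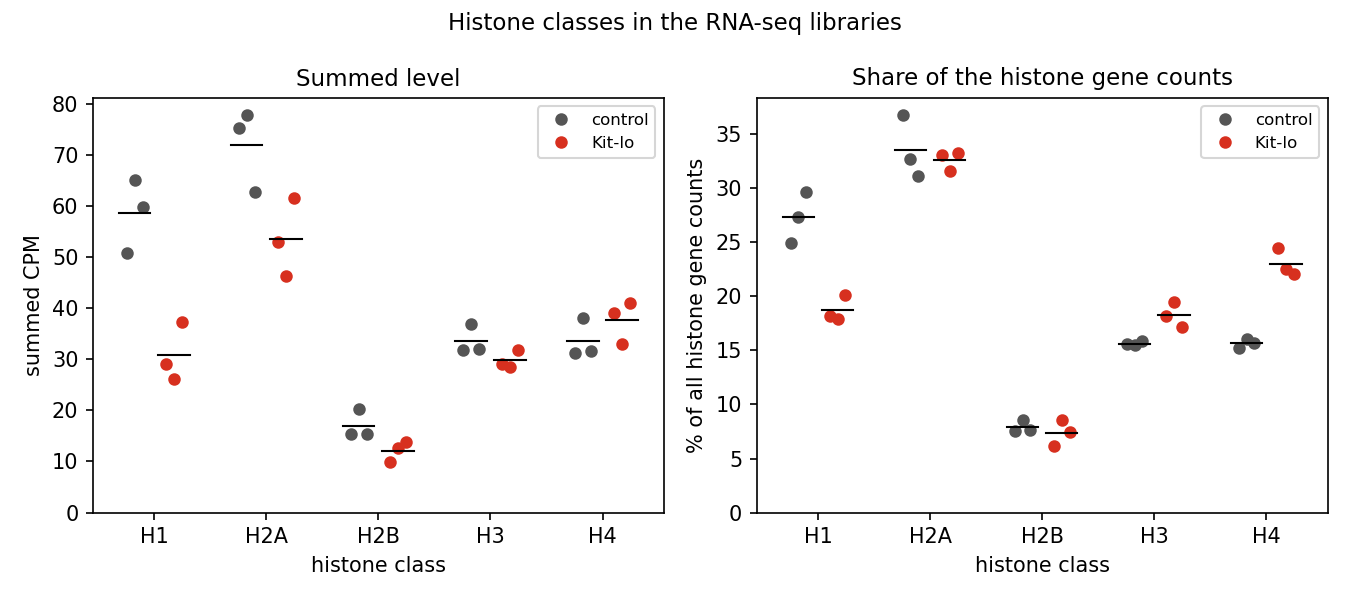
Summed CPM (left) and percent of all histone gene counts (right) of each histone class in each RNA-seq library, with the mean as a line. The H1 points of CFU-E Kit-lo lie below control in both panels, and the H4 points overlap on the left and lie above control on the right.

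The 3 genes called all have a longest annotated transcript of at least 1000 bases. Of the 16 tested members with such a transcript, 3 were called lower, with a median log2 fold change of -0.38. Of the 22 tested members with shorter transcripts, 0 were called by edgeR or DESeq2, with 2 lower and 1 higher at an unadjusted p under 0.05 and a median of -0.13. The same 3 genes also fell on one side when members were split by shared sequence. Of 20 tested members with at least 50% of their words in no other gene, 3 were called lower, with a median of -0.44. Of the 18 others tested, 0 were called by edgeR, with a median of -0.11. At an unadjusted p under 0.05, 2 of these 18 were lower and 1 higher. Gene counts do not show which end of a transcript the reads came from. The differences between the length groups and between the sequence groups were not tested.

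Markers of erythroid stage also differed between these libraries, while most sums for other cell types overlapped. The erythroid identity markers Gata1, Klf1, Tfrc and Epor summed to 2454 ± 60.8 CPM in control and 3026 ± 72.6 CPM in CFU-E Kit-lo (SD, n = 3), and Klf1 and Epor rose. The summed level of the 9 late erythroid markers (globins, Alas2, Slc4a1 and others) was 236 ± 15.3 CPM in control and 3643 ± 938 CPM in CFU-E Kit-lo, and 8 of the 9 rose. The 5 early progenitor markers (Kit, Gata2, Cd34, Myb and Hhex) summed to 823 ± 59.9 and 81.2 ± 11.5 CPM, and all 4 tested fell. Kit, by which CFU-E Kit-lo were gated, held most of both sums, so the fall of this sum is not independent of the gate. The granulocyte markers summed to 24.1 ± 4.87 and 10.2 ± 5.75 CPM without overlap (Mpo fell and Ngp rose, of 3 tested), while the macrophage markers (1 of 5 tested fell, 10.6 and 8.47 CPM), the megakaryocyte markers (2 rose and 1 fell of 4 tested, 12.7 and 14.5 CPM) and the lymphoid markers (0 of 5 high enough to test, 1.002 and 2.34 CPM) overlapped between the groups. The macrophage marker Adgre1 had 2 counts in each control library and 0 in each CFU-E Kit-lo library and was too low to test. Their part in the histone values was not tested. In bulk samples, fewer cells of a type and less RNA per cell cannot be told apart.

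Histone variants outside the replication-dependent clusters are made through the cell cycle and, in most cases, from ordinary polyadenylated mRNA. Of 9 tested, H2afx and H2afy fell and H1f0 rose. Over all genes tested, 9.83% were called lower and 12.1% higher, the background for this list and the RNA-seq lists below. H2afx encodes H2A.X, the variant phosphorylated around DNA breaks, and its gene is known to make both a stem-loop and a polyadenylated mRNA. It was at 335, 323 and 309 CPM in control and 50.2, 40.4 and 34.5 CPM in CFU-E Kit-lo, a 7.72-fold fall (log2 fold change -2.95 ± 0.13 SE, edgeR adjusted p = 4.5e-07).

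H1f0 encodes H1.0, the linker histone known to accumulate in differentiated and non-dividing cells. It was at 6.22, 11.1 and 6.81 CPM in control and 12.8, 23.0 and 36.6 CPM in CFU-E Kit-lo, where the 3 libraries were far apart but all above control. The rise was 3.01-fold (log2 fold change 1.59 ± 0.36 SE, edgeR adjusted p = 0.0071). Hist1h1c and H1f0 thus moved in opposite directions between the same libraries. H2afy, which encodes macroH2A1, fell from 42.4 ± 2.11 to 15.9 ± 3.61 CPM (log2 fold change -1.41, adjusted p = 0.00018). The replication-independent H3 genes were not called: H3f3a was at 341 ± 6.68 and 341 ± 17.9 CPM, and H3f3b had a log2 fold change of -0.20.

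Of the 11 genes that process histone pre-mRNA, Lsm10 rose and Cpsf3 fell. Slbp was at 562, 537 and 565 CPM in control and 696, 785 and 694 CPM in CFU-E Kit-lo. All 3 CFU-E Kit-lo libraries were higher, by a log2 fold change of 0.39 ± 0.08 (SE, edgeR adjusted p = 0.0033), a difference below the 1.5-fold threshold. Lsm10, a subunit of the U7 ribonucleoprotein, rose 3.64-fold from 47.1 ± 4.07 to 171 ± 6.67 CPM (edgeR adjusted p = 1.5e-06). Cpsf3, the nuclease that cuts both histone and ordinary pre-mRNA, fell from 106 ± 3.98 to 60.7 ± 4.01 CPM (adjusted p = 0.00016).

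In the general cleavage and polyadenylation list, 2 of 14 genes rose and 1 fell. Clp1 rose 3.10-fold, from 90.6 ± 1.93 to 281 ± 9.58 CPM, and Cstf1, a cleavage stimulation factor, rose from 106 ± 4.57 to 172 ± 18.1 CPM. Cpsf4 fell from 56.3 ± 1.63 to 29.9 ± 2.59 CPM. Mif4gd, the Slbp-interacting translation factor, was the one gene that rose of 4 tested for histone mRNA translation and decay, from 98.5 ± 5.50 to 156 ± 0.828 CPM.

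The genes that drive histone transcription at the start of S phase had log2 fold changes above 0 in 7 of 8 cases, and 3 of the 8 rose. Ccne1 and Ccne2, the cyclins that activate Cdk2 and through it the histone gene coactivator Npat, rose from 382 ± 43.9 to 755 ± 33.3 CPM and from 149 ± 18.0 to 263 ± 22.6 CPM. Casp8ap2, which encodes the histone locus body protein FLASH, rose from 78.6 ± 1.66 to 132 ± 17.9 CPM. Npat itself was at 71.2 ± 6.03 and 88.1 ± 2.79 CPM, below the fold threshold.

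Genes of DNA replication did not share the direction of the 3 histone genes called. Of 22 S-phase genes, 5 rose and 0 fell by edgeR, with a median log2 fold change of 0.30. At an unadjusted p under 0.05, 17 were higher and 0 lower, beside 22% and 21.5% of all genes tested. Tk1, thymidine kinase, rose from 178 ± 6.71 to 473 ± 41.0 CPM and Rrm2, a subunit of ribonucleotide reductase, from 88.2 ± 11.5 to 226 ± 27.2 CPM. Fen1, Cdc6 and Gins1 rose by log2 fold changes of 1.12, 0.76 and 0.61, and the call of Gins1 was lost in 4 of 16 alternatives. Of 25 histone chaperones and import factors, 3 rose and 0 fell. These were Tonsl, which binds newly made H4, and Chaf1a and Chaf1b, subunits of the CAF-1 complex that deposits H3 and H4 behind the fork, with log2 fold changes of 1.07, 0.68 and 0.69. Chaf1a was at 115 ± 1.78 and 184 ± 65.1 CPM, and its call was lost in 6 of 16 alternatives.

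The m6A experiment measured which transcripts of control CFU-E were captured by an m6A antibody relative to input. Of 58 histone genes tested, 8 were lower in IP than in input and 0 higher (Benjamini-Hochberg adjusted p under 0.05 by edgeR's quasi-likelihood test). Of all 11447 genes tested, 7.86% were lower in IP and 7.9% higher, beside 13.8% of the histone genes called lower. At an unadjusted p under 0.05 the counts by edgeR were 22 lower and 0 higher, beside 14.8% and 17.2% of all genes tested. DESeq2 called 13 lower and 0 higher, and the share of all genes that it called is not given here. The median log2 ratio of IP over input was -0.66 for the 58 genes and 0.06 for all genes tested, and 50 of the 58 ratios were below 0. In 41 of the 58, both IP libraries lay below both input libraries, as in 28.7% of all genes tested.

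The count of genes called depended on single libraries: it was 4 without input replicate 1, 5 without IP replicate 1 and 15 without IP replicate 2. Without IP replicate 2, Hist2h2be was also called higher in IP. Each of these fits leaves 1 library in an arm, which is assumed to vary like the libraries of the other arm. The number of all genes called lower in IP changed with the library left out as well. A lower IP level is a share of the captured RNA and gives no amount of m6A per transcript.

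**Figure D4:**
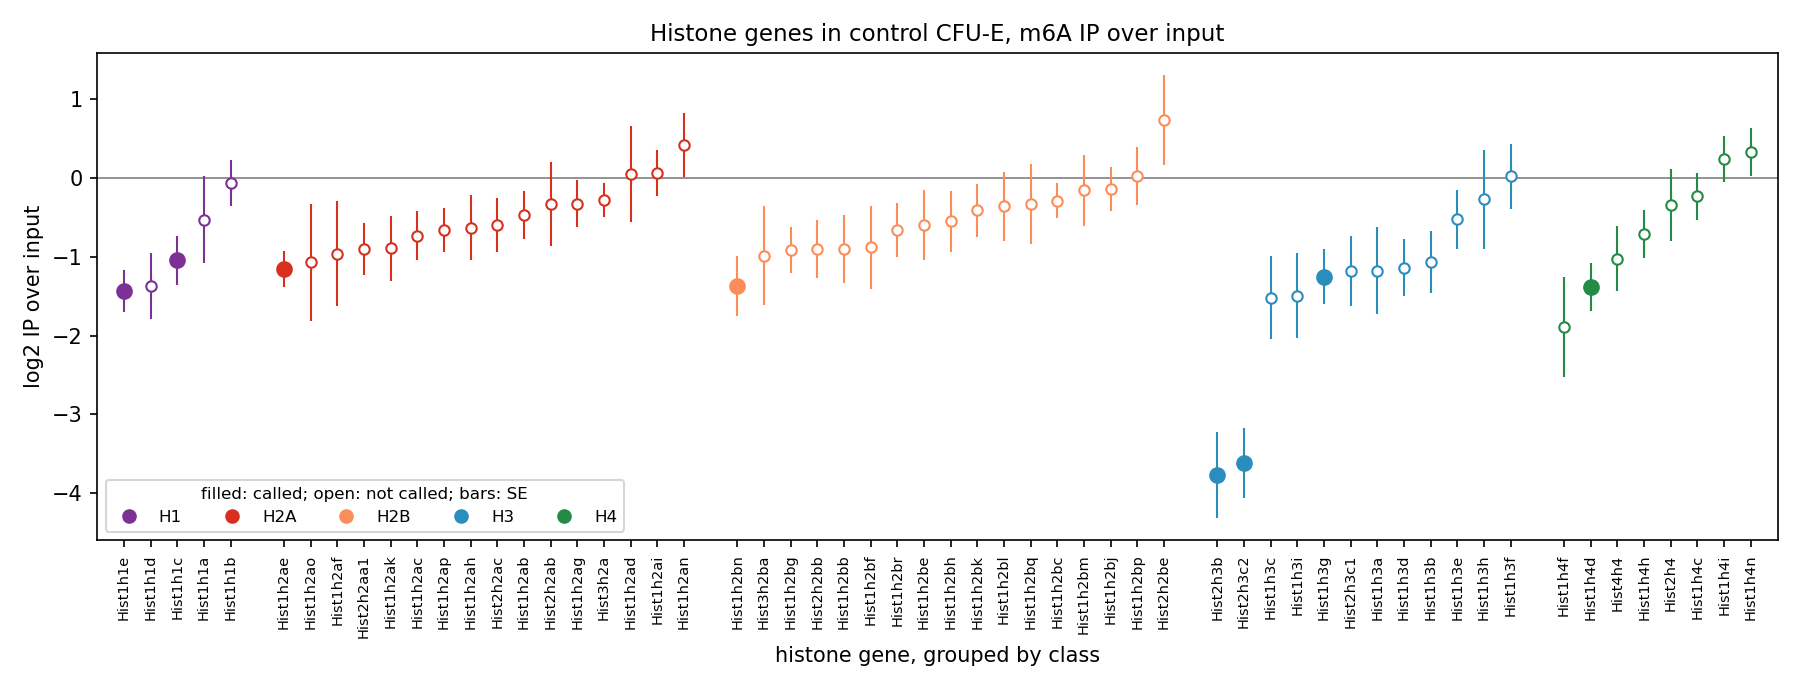
Log2 ratio of IP over input in control CFU-E for the 58 tested histone genes, with the SE, ordered within each class. Filled points passed the threshold, all 8 of them below 0, and Hist2h3b and Hist2h3c2 lie farthest from 0.

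The lowest ratios belonged to Hist2h3b and Hist2h3c2, H3 genes on chromosome 3. Hist2h3b was at 197 and 52.8 CPM in input and at 6.83 and 11.7 CPM in IP (log2 ratio -3.77 ± 0.54 SE, edgeR adjusted p = 0.0012). Hist2h3c2 was at 98.2 and 36.9 CPM in input and 4.48 and 6.63 CPM in IP (log2 ratio -3.62 ± 0.45 SE, adjusted p = 0.00044). In both genes the input replicates were more than 2-fold apart, and even the lower one stood well above IP. Both kept their call under each of 12 alternatives, with log2 ratios from -4.43 to -2.55 for Hist2h3b and from -4.16 to -2.76 for Hist2h3c2. Hist2h3c2 shares 64.2% of its words with Gm20634, so its values are uncertain like those of Hist2h3b.

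Hist1h2ae, an H2A gene, also kept its call under each of the 12. It was at 152 and 165 CPM in input and 61.9 and 80.0 CPM in IP (log2 ratio -1.16 ± 0.23 SE, adjusted p = 0.0074). Hist1h4d, the H4 gene, was at 61.5 and 67.0 CPM in input and 16.9 and 32.5 CPM in IP (log2 ratio -1.38 ± 0.31 SE, adjusted p = 0.014). Hist1h1e, which encodes the linker histone H1.4, was at 40.9 and 31.7 CPM in input and 11.9 and 15.02 CPM in IP (log2 ratio -1.44 ± 0.27 SE, adjusted p = 0.0056). Each had both IP libraries below both input libraries. Hist1h4d lost its call without IP replicate 1 (edgeR adjusted p = 0.0506) and Hist1h1e without input replicate 1 (edgeR adjusted p = 0.0603).

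Of the remaining genes called, Hist1h1c was at 12.6 and 8.60 CPM in input and 5.27 and 5.02 CPM in IP (log2 ratio -1.05 ± 0.31 SE, adjusted p = 0.044), so the linker gene that fell in CFU-E Kit-lo was not enriched by the m6A antibody in control cells. Hist1h2bn, an H2B gene, and Hist1h3g had log2 ratios of -1.37 and -1.25, each with an adjusted p of 0.036. The calls of Hist1h1c, Hist1h2bn and Hist1h3g were each lost in 4 of 12 alternatives. Hist1h1d, with a log2 ratio of -1.37, lay just outside the threshold (adjusted p = 0.0504), and Hist1h1b had a ratio near 0 (-0.06 ± 0.29 SE). Hist1h1a, the lowest linker gene in input, was at 0.784 ± 0.0755 CPM there and 0.539 ± 0.0515 CPM in IP (log2 ratio -0.53 ± 0.56 SE).

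The other genes that fell in CFU-E Kit-lo were not called in the m6A comparison. Hist3h2a was at 67.7 and 63.1 CPM in input and 52.4 and 55.4 CPM in IP (log2 ratio -0.28 ± 0.22 SE, edgeR adjusted p = 0.41). Hist2h2be was at 3.39 and 1.97 CPM in input and 7.07 and 1.71 CPM in IP, with IP replicates about 4-fold apart (log2 ratio 0.73 ± 0.57 SE, adjusted p = 0.41). Of 10 variants tested, 3 were lower in IP and 0 higher, beside 7.86% and 7.9% of all genes tested. H1f0 and H2afy were lower, with log2 ratios of -1.17 and -1.61. H1fx, the linker variant H1.10, was also called lower (log2 ratio -6.91 ± 0.69 SE, edgeR adjusted p = 0.0001). It had 129 and 60 counts in input and 1 and 1 in IP. H2afx was not called (log2 ratio -0.39, adjusted p = 0.23), and neither was Slbp (log2 ratio -0.71, adjusted p = 0.056).

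By class, the median log2 ratio of IP over input was -1.05 for the 5 H1 genes, -0.61 for 16 H2A, -0.55 for 17 H2B, -1.18 for 12 H3 and -0.53 for 8 H4 genes tested. Each class median lay below that of all genes. The letters GGACT, one form of the motif at which Mettl3 is known to act, were found on the sense strand of the longest transcript of 23 of 63 histone genes (36.5%) and of 19183 of 21901 protein-coding genes (87.6%). Length moves with this count: 13 of the 18 long histone transcripts held the letters and 10 of the 45 short ones. Hist1h1c held 5, Hist1h4d 3, Hist2h2be 2, Hist2h3b and Hist2h3c2 1 each, and Hist3h2a and Hist1h2ap 0.

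In the m6A comparison, 4 of 22 S-phase genes were higher in IP (Mcm4, Mcm6, Rrm1 and Orc1) and 0 lower by edgeR. At an unadjusted p under 0.05, 7 were higher and 0 lower. Over all genes tested, 7.9% were called higher and 7.86% lower, which is also the background of the lists that follow. At that unadjusted p, 17.2% of all genes tested were higher and 14.8% lower. Of the histone transcription genes, Cdk2 and Ccne2 were higher in IP and E2f1 and Ccne1 lower. Lsm11, the partner of Lsm10 in the U7 ribonucleoprotein, was the one gene called of 11 for 3′ processing and was lower (25.6 and 25.4 CPM in input, 4.43 and 3.52 CPM in IP). Of the chaperones and import factors, 3 of 25 were higher and 2 lower, and of the translation and decay and the cleavage and polyadenylation lists 1 gene each was lower, Upf1 and Pcf11. The erythroid identity markers were at 3131 ± 443 CPM in input and 2279 ± 332 CPM in IP (SD, n = 2), and the late erythroid, early progenitor, macrophage, granulocyte, megakaryocyte and lymphoid markers at 185, 97.5, 3.49, 3.35, 10.9 and 3.26 CPM in input and 155, 121, 4.70, 1.79, 8.33 and 1.598 CPM in IP. The early progenitor sums overlapped between input and IP, the macrophage sums were higher in IP and the other sums lower, and their part in the histone ratios was not tested.

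Control CFU-E were sequenced by both preparations, and the histone genes stood at unlike levels in them. Across the 51 members in both tables, 42 were higher in m6A input than in RNA-seq, with a median ratio of 3.50, whereas 4002 of 10773 genes tested in both were higher in input, with a median of 0.612. The tables were made and normalised separately, so these are values side by side and no test was made. CPM is not scaled to transcript length, and only the m6A libraries were described as amplified from the 3′ end. Length may therefore weigh differently in the 2 preparations, and its part in these ratios was not tested. Hist1h2ap held 73.1 ± 2.08% of all histone gene counts in input (SD, n = 2) and 18.9 ± 3.45% in RNA-seq control (SD, n = 3), at 2480 and 40.5 CPM.

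**Figure D5:**
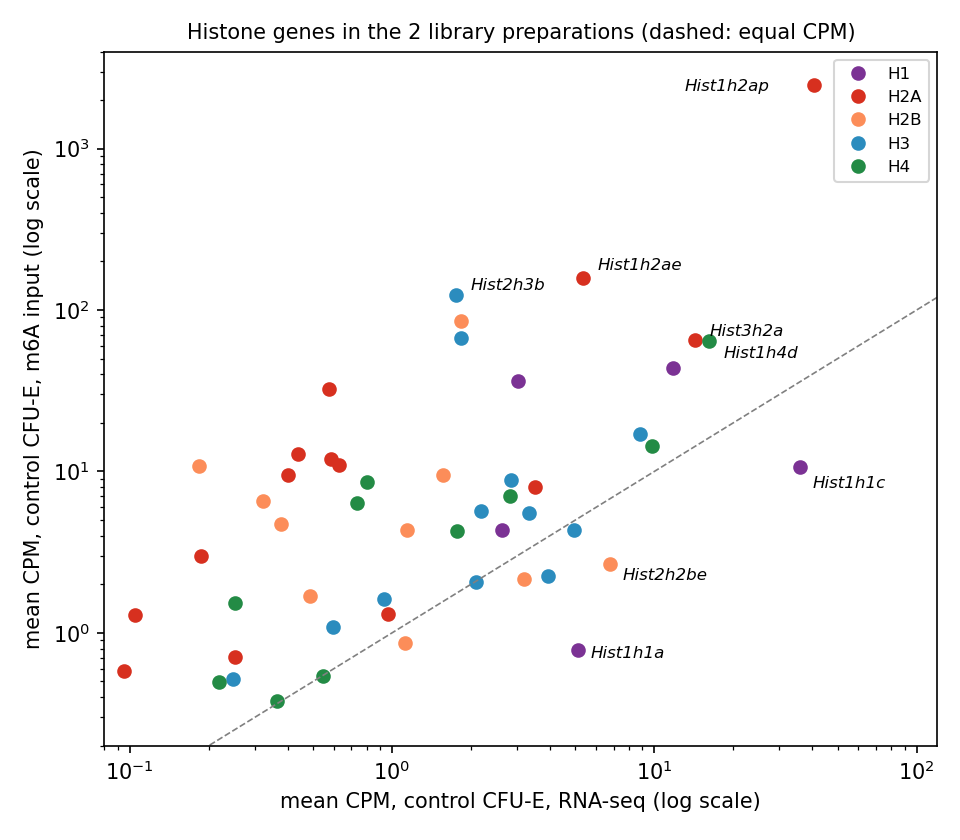
Mean CPM of 51 histone genes in control CFU-E by RNA-seq (horizontal, 3 libraries) and in m6A input (vertical, 2 libraries), on log axes, coloured by class. Most points lie above the dashed line of equal CPM, Hist1h2ap is at 40.5 and 2480 CPM, and Hist1h1a, Hist1h1c and Hist2h2be lie below the line.

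The order of the genes differed as well. Hist1h1a, Hist1h1c and Hist2h2be were 6.53-, 3.39- and 2.53-fold higher in RNA-seq than in input, the largest such ratios of the 51. Hist1h2ap was 61.2-fold higher in input. Hist2h3b was 70.9-fold higher, a mean of input libraries that lay 30.01- and 112-fold above the RNA-seq mean. Of the 18 members with a transcript of at least 1000 bases, 13 were higher in input, with a median ratio of 2.96, and of the 33 shorter ones 29 were, with a median of 3.72.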

How the data were processed

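RNA-seq libraries were made from sorted CFU-E by Smart-seq2 with oligo-dT priming, and m6A libraries (SLIM-seq) by antibody capture, oligo-dT priming, Tn5 fragmentation and 3′-end amplification. The authors filtered reads with fastp 0.23.4, quantified transcripts of the mm10 mouse genome with kallisto 0.48.0, summed them to genes with tximport and deposited estimated counts per gene, without replicate pooling. The submitters' notes also list GRCm39; the use of strand is not given in the sources used here. A tool that shares out reads between near-identical genes makes the split among histone copies uncertain.

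Counts were rounded, genes with low counts were dropped by edgeR's filterByExpr and the rest tested with edgeR 4.0.16 (TMM, quasi-likelihood; R 4.3.3), separately in each table. RNA-seq calls needed a fold of at least 1.5 and an adjusted p under 0.05, m6A calls an adjusted p under 0.05. CPM are on TMM-scaled library totals. DESeq2 1.42.0 was an alternative. Other alternatives were other scalings, filters and thresholds, a replicate block, leaving out each library, and, chosen after seeing the data, leaving out globin genes. The fits were tested on simulated data. Between libraries of a group, counts differed by more than sampling noise, so each library was counted once. Depth limits genes with few counts, and no interval beyond the replicate error is given.

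Members were the genes whose symbols start with Hist1h, Hist2h, Hist3h or Hist4. Members and lists of related genes were chosen with earlier results of these data known. Named with values are members called in either comparison, linker H1 genes, the member of each class with the highest CPM, up to 6 genes called per related list, and Slbp; other genes were named after their values were seen. Sequences came from GRCm38 with GENCODE vM21. The 6 proerythroblast samples were not analysed here.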

Additional observations from a re-analysis of the deposited data

How the results depend on the processing

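Hist1h1c and Hist3h2a were called lower in CFU-E Kit-lo under each of 16 alternatives, with log2 fold changes from -2.31 to -1.77 and from -3.52 to -2.93. Hist2h2be lost its call against a tested fold of 1.5 (glmTreat, adjusted p = 0.108) and without control replicate 2 (adjusted p = 0.0716). Leaving out 1 library gave 2 to 5 histone genes called lower, 0 to 1 called higher and a median log2 fold change from -0.55 to -0.10. The 5 were Hist1h1c, Hist3h2a, Hist2h2be, Hist1h3d and Hist2h2aa2, without CFU-E Kit-lo replicate 3, and the gene called higher was Hist1h3i (without that library or control replicate 2) or Hist1h2ad (without CFU-E Kit-lo replicate 1). Hist1h1e ranged from -0.76 to 0.033 when 1 library was left out, the latter without control replicate 2. All genes called lower numbered 1178, 2024 with no fold threshold and 482 by glmTreat; called higher they numbered 1453 and 665 by glmTreat.

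In the m6A comparison the count called lower in IP was 8, 13 with DESeq2, 5 with library totals only, 16 with the replicate block and 4 among members with at least 50% of their words in no other gene. Leaving out 1 library gave 4 to 15 lower, 0 to 1 higher and a median from -0.84 to -0.59. Library totals only and the upper quartile moved the median of all genes from 0.06 to 0.21 and 0.18 and that of the histone genes from -0.66 to -0.52 in both. Hist1h1b turned to 0.077 and 0.079 with these scalings and ranged from -0.53 to 0.28 when 1 library was left out, above 0 without input replicate 2 or IP replicate 1. The cause of these changes was not tested. All genes called higher in IP numbered 904, 1451 with the upper quartile and 1783 with the replicate block. All called lower numbered 900 and 1755 with the block. Over the alternatives that kept all libraries, 886 to 1783 genes were called higher and 608 to 1755 lower. The number called higher changed by more than 1.5-fold in each fit that left out 1 library, in some upward and in some downward. Replicate numbers are shared between groups, but no source says that they mark shared mice: deviations of same-numbered libraries correlated by 0.03, -0.02 and -0.07 in RNA-seq and 0.21 in the m6A pairs. With the block, the RNA-seq comparison gave 3 histone genes lower.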
